A study of Saccharomyces cerevisiae with 6 samples.

Results

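Autophagy genes of budding yeast were followed on cDNA arrays that compared cells exposed to zinc pyrithione with untreated cells. They were taken as every gene whose symbol is ATG followed by digits alone, together with VPS30, VPS34, VPS15, PEP4, PRB1 and PRC1. On the array 41 such genes had a spot, out of 5379 named genes, and 33 of the 41 had a value on all 3 arrays. PRB1, a vacuolar endopeptidase gene, and ATG44 were not analysed here. The rule selects genes by name, with no cutoff on a measured value, but it was proposed with earlier results of these data known.

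Strain S288C of Saccharomyces cerevisiae grew in YPD, a rich glucose medium, at 25 °C to the exponential phase, and one culture was then exposed for 2 h to 12.6 µM zinc pyrithione. This zinc complex, a biocide of anti-dandruff shampoos, was dissolved in dimethyl sulfoxide, and the other culture was labelled as grown for the same 2 h without any treatment. Polyadenylated RNA of treated cells carried Cy5 and that of untreated cells Cy3, and each of the 3 hybridizations, from independent biological samples, was read with the laser at a high and at a low setting. Every value below is a log2 ratio of treated over untreated cells. That direction is likely from the order of the channels, but the deposited values do not state it, and the opposite order would exchange "higher" and "lower" throughout. No array had its dyes exchanged, so dye and treatment cannot be told apart, and neither can the solvent and the compound. A ratio shows RNA levels and does not measure autophagy itself.

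In autophagy, a double membrane closes around cytoplasm to form an autophagosome, which fuses with the vacuole, the digestive compartment of the yeast cell. The Atg1 kinase complex starts the process, vesicles with Atg9 and a lipid kinase complex build the membrane, and conjugation enzymes attach the ubiquitin-like protein Atg8 to lipid. Receptors that bind Atg8 select cargo such as mitochondria or endoplasmic reticulum, and vacuolar hydrolases break the contents down for reuse. The pathway is held low by the TORC1 kinase when nutrients are ample, and several ATG genes are known to be induced by nitrogen starvation.

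The test covered 33 of the 41 genes, since 8, among them ATG40 and VPS30, lacked a value on at least 1 array. Of the 33 genes with 3 values, 2 rose (ATG22 and ATG15), 1 fell (ATG27) and 30 did not pass the test (limma over all 4312 genes with 3 values, Benjamini-Hochberg adjusted p under 0.05). Over all genes tested 8.12% were higher and 9.60% lower, together 17.7%, against 9.09% of the autophagy genes. Whether these shares differ was not tested. One autophagy gene, ATG22, lay 2-fold or more from 0 (3.03%), against 6.75% of all genes. The median log2 ratio was 0.09 for the autophagy genes and 0.03 for all genes tested. The median size of the log2 ratio, regardless of sign, was 0.24 and 0.30. Of the autophagy genes 14 had the same sign on all 3 arrays, or 42.4%, against 54.9% of all genes. These were 11 above 0 and 3 below, where 28.9% and 26.0% of all genes were. The precision was limited by the number of arrays: a 95% limma interval reached a median of 0.41 log2 units to either side of the mean, and for 28 of the 33 genes it stayed within 2-fold of no change.

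**Figure D1:**
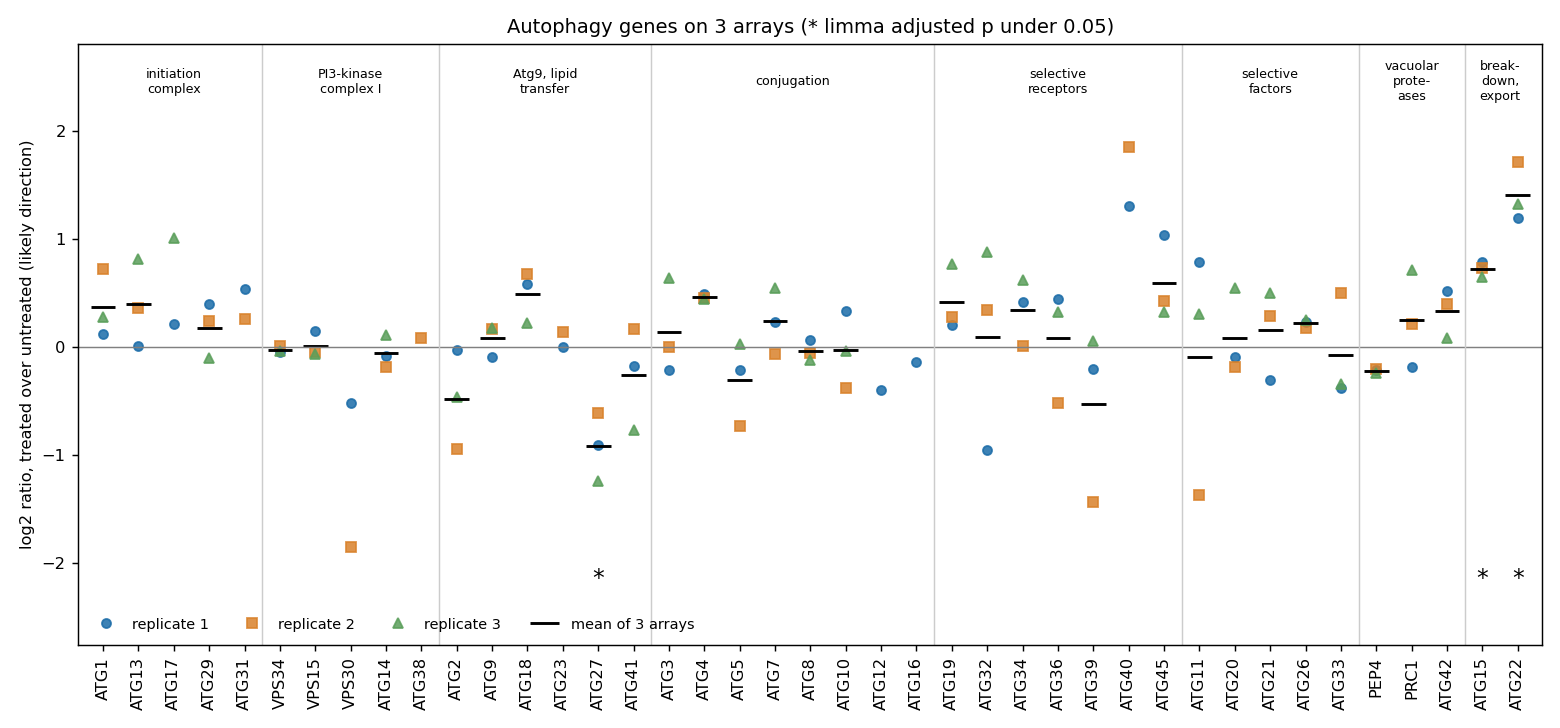
Log2 ratio of treated over untreated cells (vertical axis) for the 41 autophagy genes (horizontal axis, grouped by role), with 1 point for each array and a bar at the mean of genes with 3 values. ATG22 and ATG15 lie above 0 and ATG27 below 0 on every array, while the points of most other genes lie on both sides of 0 or close to it.

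Both genes that rose act in the vacuole at the end of the pathway. ATG22 (YCL038C) encodes a vacuolar membrane protein that helps export amino acids released by breakdown. Its log2 ratios were 1.20, 1.71 and 1.32 on arrays 1, 2 and 3. Every array was thus over 2-fold, and the mean of 1.41 ± 0.27 (SD, n = 3) corresponds to 2.66-fold, with a 95% interval of 2.02-fold to 3.50-fold (limma adjusted p = 0.0021). Of the autophagy genes with 3 values it was the highest, and it stood at percentile 98.6 of all genes tested. Leaving out any single array kept it past the threshold, with means of 1.26 to 1.52 and limma adjusted p of 0.011 to 0.017.

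ATG15 (YCR068W) encodes the vacuolar lipase that dissolves the membrane of autophagic bodies, so that their contents reach the proteases. It stood at 0.79, 0.73 and 0.65 on arrays 1, 2 and 3, which is 1.65-fold on average (mean 0.72 ± 0.07, limma adjusted p = 0.018). The 3 arrays were closer to each other than for most genes, with an SD at percentile 5.54 of all genes. The call nevertheless ended without array 1 (mean 0.69, limma adjusted p = 0.11) and without array 2 (mean 0.72, 0.086). ATG22 and ATG15 are the sole members of the class of vacuolar breakdown and export. The classes were drawn up with earlier results of these data known, so the calls of both are not a result about the class.

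ATG27 (YJL178C), the gene that fell, encodes a membrane protein that cycles with Atg9 between the Golgi, endosomes and the vacuole. Its log2 ratios were -0.91, -0.61 and -1.24, below 0 on every array and in all 6 scans. The mean of -0.92 ± 0.31 corresponds to 1.89-fold lower (limma adjusted p = 0.013). The call ended without array 1 (mean -0.92, limma adjusted p = 0.072), without array 3 (mean -0.76, 0.055) and in the low-power scans alone (mean -0.93, 0.069). In the high-power scans alone the arrays lay closer together, at -0.85, -0.90 and -0.99 (limma adjusted p = 0.0029).

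ATG40 (YOR152C), which encodes a receptor for autophagy of the endoplasmic reticulum, was measured on arrays 1 and 2 alone. Its mean over the arrays with a value was the highest of all 41 genes. Array 1 gave 1.30, from 1.44 in the high-power scan and 1.16 in the low-power scan, and array 2 gave 1.85 in its high-power scan. Their mean of 1.58 is 2.98-fold. When genes with values on at least 2 arrays were tested, ATG40 was past the threshold (95% interval 1.02 to 2.14; limma adjusted p = 0.00771), along with ATG22, ATG15 and ATG27. In that test 38 autophagy genes entered, of which 3 were higher and 1 lower, against 6.50% higher and 8.24% lower, together 14.7%, among 5048 genes. ATG40 lies beside PDR5, the multidrug efflux pump gene, in the RefSeq annotation (assembly R64), and both are transcribed away from the stretch between them. PDR5 stood at 2.55, 3.21 and 2.66 on arrays 1, 2 and 3.

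The core machinery, which holds the initiation complex, the lipid kinase complex, Atg9 with its partners and the conjugation enzymes, had a median log2 ratio of 0.01. Of its 24 genes 17 had 3 values, of which 1 fell (ATG27) and 16 did not pass the test. That is 5.88%, beside 17.7% of all genes tested. The same 17.7% stands beside the counts of each class below, which hold too few genes to show a difference in share. The medians on arrays 1, 2 and 3 were 0.0058, -0.0031 and 0.026, beside 0.01, 0.04 and 0.03 for all genes tested. For 9 of the 17 the mean was above 0 and for 8 below.

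**Figure D2:**
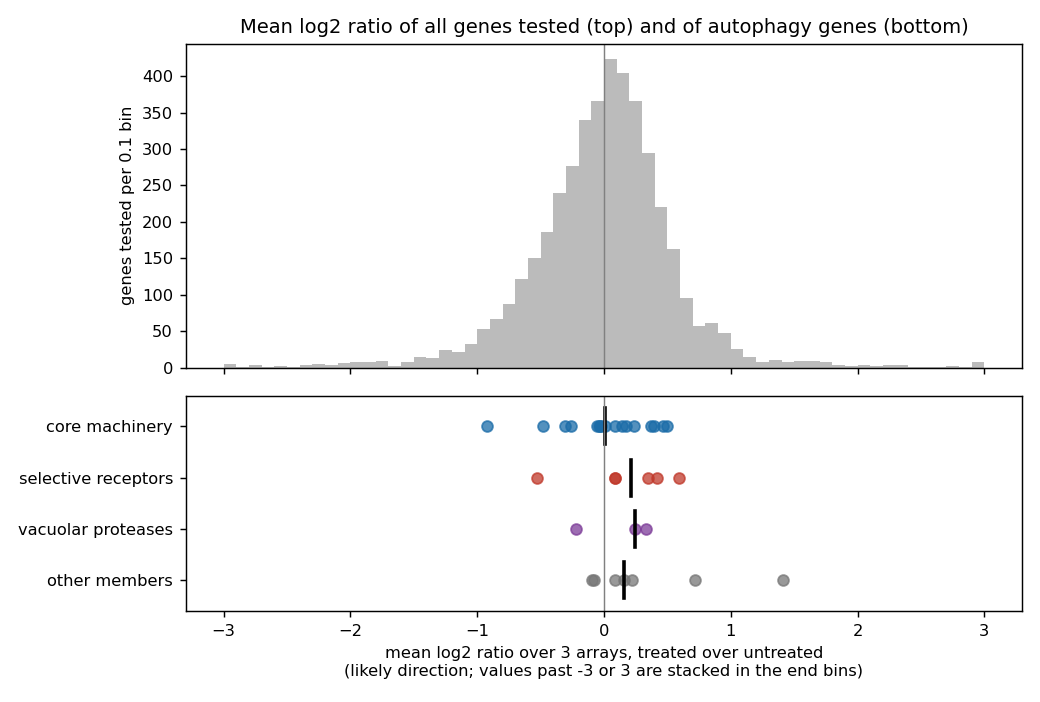
Number of genes per bin of mean log2 ratio for the 4312 genes tested (top) and the mean log2 ratios of the 33 autophagy genes with 3 values by group (bottom), where points are genes and black bars are medians. The autophagy genes lie between -0.92 (ATG27) and 1.41 (ATG22), and the medians of core machinery, receptors and proteases are 0.01, 0.22 and 0.25.

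Within the initiation complex, ATG1, the gene of the kinase, had log2 ratios of 0.12, 0.72 and 0.27 (mean 0.37 ± 0.31). ATG13, which encodes the regulatory subunit that TORC1 phosphorylates, stood at 0.01, 0.36 and 0.81 (mean 0.39 ± 0.41). Both were above 0 on every array once scans were averaged, with limma adjusted p of 0.18 and 0.20. The scans disagreed in sign for ATG1 on array 3 (0.56 at high power, -0.01 at low) and for ATG13 on array 1 (0.09 and -0.08). ATG29, a gene of the scaffold subcomplex, had a mean of 0.18 ± 0.26, and its coding region overlaps that of SET6 in the annotation. The other scaffold genes were measured on a pair of arrays each: ATG17 at 0.21 on array 1 and 1.01 on array 3, and ATG31 at 0.54 on array 1 and 0.26 on array 2. Every array value of this complex, with scans averaged, was above 0 apart from that of ATG29 on array 3 (-0.11). None of the 3 tested genes was past the threshold.

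The lipid kinase complex makes phosphatidylinositol 3-phosphate, and its catalytic and regulatory subunits were among the steadiest genes. VPS34, the kinase gene, stood at -0.05, 0.01 and -0.04 (mean -0.03 ± 0.03), with a 95% interval of -0.38 to 0.32. VPS15, the gene of its regulatory kinase, stood at 0.15, -0.05 and -0.07 (mean 0.01 ± 0.12). ATG14, whose product directs the complex to autophagosome formation, had a mean of -0.05 ± 0.15. All 3 were within 0.2 of 0 on every array. VPS30, also known as ATG6, differed from them, at -0.52 on array 1 and -1.85 on array 2, with no value on array 3. Among genes with at least 2 arrays it was not past the threshold (mean -1.18, limma adjusted p = 0.0621). ATG38, which links the subunits, had a single value, 0.09 on array 2.

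Among 5 tested genes of Atg9 vesicles and lipid transfer, ATG27 fell, as given above, and 4 did not pass the test. ATG9, the gene of the membrane protein of these vesicles, had log2 ratios of -0.09, 0.17 and 0.18 (mean 0.08 ± 0.15). ATG18, which encodes a phosphoinositide-binding partner of Atg2, stood at 0.58, 0.67 and 0.22 (mean 0.49 ± 0.24, limma adjusted p = 0.078). ATG2, the gene of the lipid transfer protein itself, stood at -0.03, -0.94 and -0.46 (mean -0.48 ± 0.46, limma adjusted p = 0.14). The products of ATG18 and ATG2 act as a complex, yet their ratios had opposite signs on every array, and neither gene passed the test. ATG18 was past it in the high-power scans alone (mean 0.57, limma adjusted p = 0.041). ATG41, which encodes an Atg9-binding protein, had a mean of -0.26 ± 0.47, and ATG23, a factor of Atg9 transport, stood at 0.0029 on array 1 and 0.14 on array 2.

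The genes of the conjugation systems had a median of 0.06, and 0 of 6 tested passed the test (limma; the unadjusted p of ATG4 was 0.0164). ATG8, the gene of the ubiquitin-like protein that coats the autophagosome, stood at 0.07, -0.05 and -0.12. Its mean of -0.04 ± 0.10 had a 95% interval from 0.76 to 1.25 of the untreated level. ATG4, the gene of the protease that processes Atg8, gave nearly the same ratio on each array, 0.49, 0.46 and 0.45 (mean 0.46 ± 0.02, limma adjusted p = 0.07). Its SD was at percentile 0.37 of all genes. With high-power scans alone its limma adjusted p was 0.041 on the same ratios, since ATG4 had no low-power value. ATG7, the activating enzyme gene, had a mean of 0.24 ± 0.31. ATG3 and ATG10, the genes of the conjugating enzymes, stood at 0.14 ± 0.44 and -0.03 ± 0.36, and ATG5, a conjugation target, at -0.31 ± 0.39. ATG12, a second ubiquitin-like protein gene, and ATG16, whose product binds the Atg12-Atg5 conjugate, had 1 value each, -0.40 and -0.14 on array 1.

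Of the 7 genes of selective receptors 6 had 3 values and 0 passed the test (limma; 2 of the 6, ATG45 and ATG19, had an unadjusted p of 0.0158 and 0.0492). Their median was 0.22, with medians of 0.31, 0.14 and 0.47 on arrays 1, 2 and 3. The remaining receptor was ATG40, which was past the threshold when values on at least 2 arrays were enough, as given above. In that setting the median of the 7 was 0.34. Whether receptors differ from the core machinery was not tested. ATG45, which encodes a receptor for glycogen, stood at 1.03, 0.43 and 0.32 (mean 0.59 ± 0.39, limma adjusted p = 0.068). With high-power scans alone its limma adjusted p was 0.043 on the same 3 ratios, since ATG45 had no low-power value. ATG19 and ATG34 are neighbours in the annotation and encode related receptors of the cytoplasm-to-vacuole pathway, which carries hydrolases to the vacuole. ATG19 stood at 0.20, 0.27 and 0.77 (mean 0.41 ± 0.31) and ATG34 at 0.41, 0.0043 and 0.62 (mean 0.34 ± 0.31). Both were highest on array 3. A spot of one can bind the transcript of a related gene, which was not tested for this pair. The receptor genes for 3 organelles varied most. ATG32, for mitochondria, stood at -0.95, 0.34 and 0.88. ATG39, for the nucleus, stood at -0.20, -1.43 and 0.05. ATG36, for peroxisomes, stood at 0.44, -0.52 and 0.32. Each of these had both signs among its arrays, and their means of 0.09 ± 0.94, -0.53 ± 0.79 and 0.08 ± 0.52 do not show a direction.

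Other factors of selective autophagy had a median of 0.09, and 0 of 5 passed the test (limma; no unadjusted p was under 0.05, the lowest being 0.187). ATG11, the scaffold that gathers receptors, had the widest spread of all 33 genes, at 0.78, -1.37 and 0.30 (mean -0.10 ± 1.13), and its SD was at percentile 99.4 of all genes. ATG26, a sterol glucosyltransferase gene, was tight instead, at 0.23, 0.17 and 0.25 (mean 0.22 ± 0.04). ATG20, a sorting nexin gene, had a mean of 0.09 ± 0.40. ATG21, a phosphoinositide-binding protein gene, stood at 0.16 ± 0.41 and ATG33, a gene of mitochondrial autophagy, at -0.08 ± 0.49. The SDs of ATG11, ATG32 and ATG39 were the 3 above percentile 95 of all genes, and all 3 genes were measured in high-power scans alone. The other tested autophagy genes without a low-power value had SDs from percentile 0.37 (ATG4) to 80.3 (ATG2).

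The vacuolar protease genes had a median of 0.25, and 0 of 3 passed the test (limma; no unadjusted p was under 0.05, the lowest being 0.0808). PEP4, the gene of proteinase A, which activates the other vacuolar hydrolases, was the steadiest autophagy gene. It stood at -0.22, -0.21 and -0.24 (mean -0.22 ± 0.02), with a 95% interval of 0.67 to 1.09 of the untreated level. PRC1, the gene of carboxypeptidase Y, stood at -0.19, 0.21 and 0.72 (mean 0.25 ± 0.45), and its first value came from the low-power scan alone. ATG42, a related carboxypeptidase gene, stood at 0.51, 0.40 and 0.08 (mean 0.33 ± 0.22). The medians of these 3 genes on arrays 1, 2 and 3 were -0.19, 0.21 and 0.08, with both signs among the arrays. Without ATG42, PEP4 and PRC1 had a median of 0.013. ATG22 exceeded all 3 protease genes on every array, and so did ATG15 except on array 3, where PRC1 stood higher (0.72 against 0.65).

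Both scans of an array gave a value in 42 cases, from 23 of the 41 genes, and the other 18 genes had no low-power value. Low-power scans covered 29.3%, 24.4% and 51.2% of the autophagy genes on arrays 1, 2 and 3, beside 43.6%, 31.5% and 60.4% of all genes, whereas high-power scans covered 95.1%, 92.7% and 82.9% beside 97.0%, 90.6% and 83.1%. In 6 of the 42 cases the scans had opposite signs. ATG33 on array 3 read 0.24 at high and -0.93 at low power, and ATG41 on array 3 read -0.22 and -1.32, the 2 cases apart by over 1 log2 unit. The median size of the difference between scans was 0.13, 0.15 and 0.34 for the autophagy genes, and 0.15, 0.19 and 0.28 for all genes. Across the 33 genes, which are not independent replicates, Pearson's r was 0.32 between arrays 1 and 2, 0.40 between 1 and 3 and 0.46 between 2 and 3. Over all 4312 genes it was 0.72, 0.67 and 0.65.

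**Figure D3:**
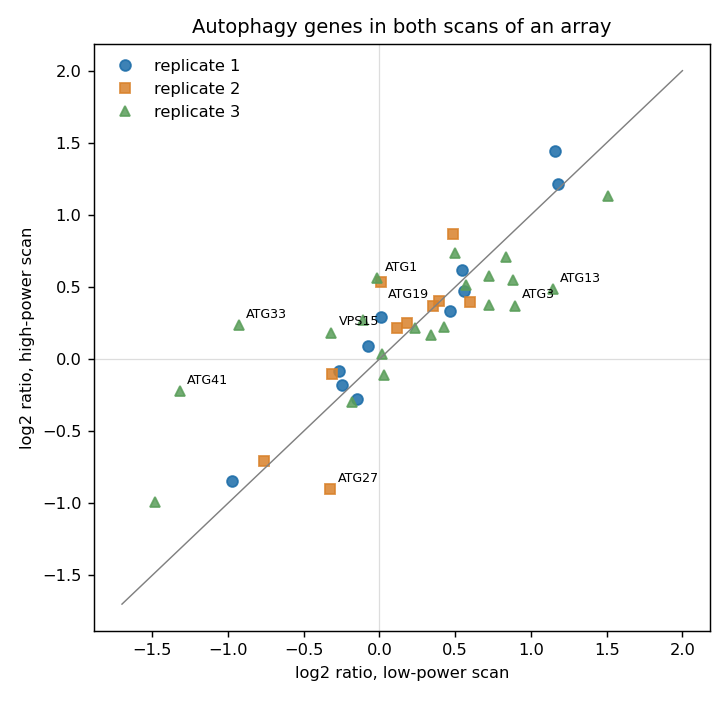
Log2 ratio in the high-power scan (vertical axis) against the low-power scan (horizontal axis) for the 42 cases in which an autophagy gene had both on an array, with names where the scans differed by over 0.5. Most points lie near the line of equal values, and ATG33 and ATG41 on array 3 lie farthest from it.

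Genes that work beside the autophagy machinery were read from 5 further lists. Among 12 other vacuolar hydrolases and inhibitors 4 rose and 2 fell (50.0%, against 17.7% of all genes tested), with a median of 0.25. PAI3, which encodes the inhibitor of proteinase A, stood at 1.56, 1.06 and 1.41 (mean 1.34 ± 0.26, limma adjusted p = 0.0025), above PEP4 on every array. TFS1, which encodes the inhibitor of carboxypeptidase Y, stood at 1.29, 0.66 and 0.61 (mean 0.85 ± 0.38, limma adjusted p = 0.022). It lost the call without array 1 (mean 0.63, limma adjusted p = 0.14), without array 2 (mean 0.95, 0.065) and in the low-power scans alone (mean 0.77, 0.097). APE1, the main cargo of the cytoplasm-to-vacuole pathway, stood at 1.19, 1.20 and 1.28 (mean 1.22 ± 0.05, 2.33-fold). APE4, another aminopeptidase of that pathway, stood at -0.95, -1.17 and -1.03 (mean -1.05 ± 0.11, 2.07-fold lower). These cargo genes thus moved in opposite directions (limma adjusted p = 0.0023 and 0.0047), while the tests of their receptor genes ATG19 and ATG34 did not pass (0.14 and 0.21).

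**Figure D4:**
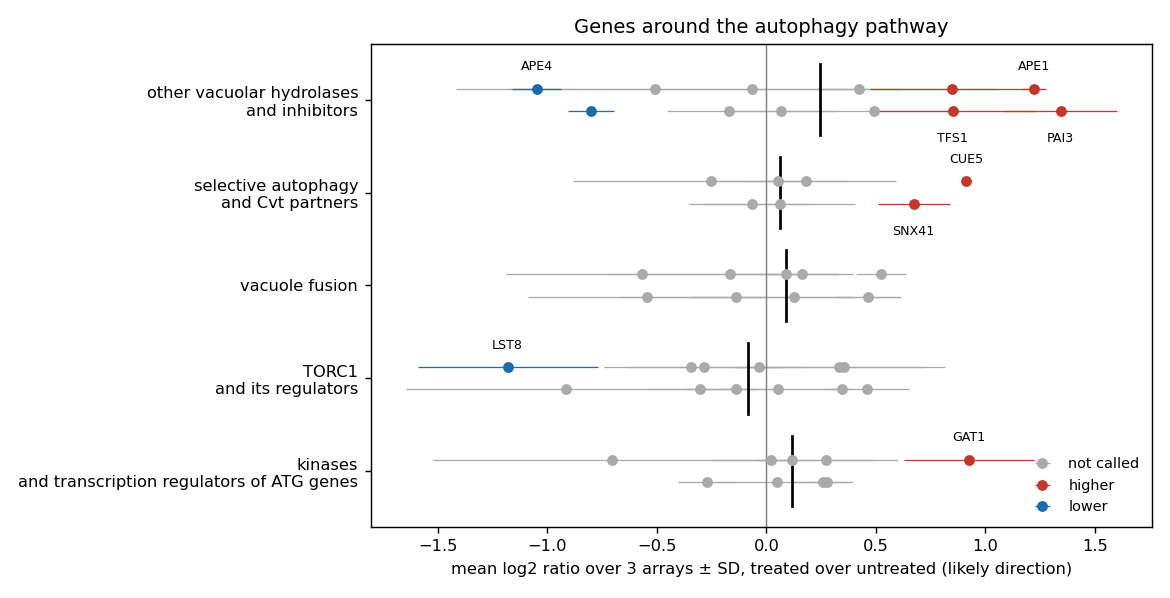
Mean log2 ratio ± SD over 3 arrays (horizontal axis) of genes around the autophagy pathway, 1 row for each list, with black bars at the medians and colours for genes past a limma adjusted p of 0.05. PAI3 and APE1 lie highest at 1.34 and 1.22, and LST8 and APE4 lowest at -1.18 and -1.05.

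Of 7 tested partners of selective autophagy 2 rose and 0 fell (28.6%, against 17.7% of all genes), with a median of 0.06. CUE5, which encodes an adaptor between ubiquitin and Atg8, stood at 0.90, 0.94 and 0.91 (mean 0.91 ± 0.02, limma adjusted p = 0.0073). Without array 1 its adjusted p was 0.052 (mean 0.92). SNX41, a sorting nexin gene, had a mean of 0.67 ± 0.17 (limma adjusted p = 0.027), and the call ended without any 1 of the arrays, with adjusted p of 0.092 to 0.1 at means of 0.58 to 0.74. Of 9 tested genes of vacuole fusion 0 passed the test, beside 17.7% of all genes (limma; VPS16 and 3 others had an unadjusted p under 0.05). VPS16, a tethering complex gene, lay farthest from 0 at -0.57 ± 0.62 (limma adjusted p = 0.14).

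Among 12 tested genes of TORC1 and its regulators 1 fell and 0 rose (8.33%, beside 17.7% of all genes), with a median of -0.09. LST8, a TORC1 subunit gene, stood at -1.16, -1.60 and -0.78 (mean -1.18 ± 0.41, 2.27-fold lower, limma adjusted p = 0.0075). TOR1 and TOR2, the genes of the kinases themselves, were not analysed here. Among 9 tested kinases and transcription regulators of ATG genes 1 rose and 0 fell (11.1%, beside 17.7% of all genes), with a median of 0.12. Lists this short cannot show whether their shares differ from that of all genes. GAT1, which encodes an activator of nitrogen-regulated genes, stood at 0.89, 1.24 and 0.65 (mean 0.93 ± 0.30, limma adjusted p = 0.013). Its call ended without array 1 (mean 0.94, limma adjusted p = 0.068) and without array 2 (mean 0.77, 0.075).

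The genes next to the autophagy genes on the chromosome changed about as often as genes at large. Of 57 tested neighbours 4 rose and 6 fell, which is 17.5%, beside 17.7% of all genes tested. ATG19 and ATG34, which lie next to each other, are themselves counted among the 57. Of the 17 transcribed away from an autophagy gene across a shared upstream stretch, 1 rose and 2 fell. PDR5 lies beside ATG40, which the main test did not cover. The autophagy genes called in that test had a neighbour with a call in the same direction in 2 cases, both facing them tail to tail. GID7 next to ATG22 stood at 0.83 ± 0.09 (limma adjusted p = 0.011). PFD1 next to ATG27 stood at -0.76, -1.62 and -0.62 on arrays 1, 2 and 3 (limma adjusted p = 0.022). On their other sides, SRO9 beside ATG22 stood at -0.47 ± 0.04 and RPL17B beside ATG27 at -0.22 ± 0.27. Neither was past the threshold (limma adjusted p = 0.067 and 0.41). ATG15 lay between SED4 (-0.34 ± 0.64) and CPR4 (0.19 ± 0.62), neither past the threshold.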

How the data were processed

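The deposited values are log2 ratios of both dyes, 1 column for each scan. Per the labels, spots with a flag value of 0 entered LOWESS normalization by the authors, which centres each scan near 0 and so hides a shift shared by most transcripts. The base was read from the values: both signs occur, and the lowest value (-6.64) is log2 of a ratio of 0.01. It occurs 4 times and in 0 autophagy genes. The array design's genome build and spot intensities were not used here, so signal over background is not known. The platform annotation gave a single gene for 5446 of 6912 spots and none for 1466. All 5446 matched RefSeq (R64), used for names and for which genes are neighbours.

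Spots of a gene were averaged, then both scans of an array, or the one present. Genes with values on all 3 arrays were tested against 0 with limma 3.58.1 (lmFit, eBayes, R 4.3.3), Benjamini-Hochberg adjustment over all of them and a threshold of 0.05. The procedure was tested on simulated data. The gene names, lists and roles were chosen with earlier results of these data known. All autophagy genes were named, and of each other list the called genes, at most 4 and farthest from 0, or the farthest 1. Alternatives were single scan powers, both scans required, at least 2 arrays, centred scans, quantile normalization, robust eBayes, 0.01 as threshold, limma's treat against 1.5-fold, the lowest values as missing, and each array left out. Figures were drawn with matplotlib 3.10.9.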

Additional observations from a re-analysis of the deposited data

How the results depend on the processing

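ATG22 stayed past the threshold in each of the alternatives that tested it. With high-power scans alone 5 of 32 tested autophagy genes were higher, the 3 added being ATG18, ATG4 and ATG45, and 1 was lower. With both scans 2 of 33 were higher and 1 lower. Over all 4252 genes tested with high-power scans 515 were higher and 570 lower, against 350 and 414 of 4312 with both scans. The core median was 0.052 with high-power scans alone. With low-power scans alone, which left 8 autophagy genes and 1429 genes to test, 0 were higher and 0 lower (all genes: 74 and 77), and the core median over 5 genes was -0.30. Genes with both scans on all 3 arrays numbered 1372, of which 175 were higher and 182 lower. Among the 7 autophagy genes in that set 0 were higher and 1, ATG27, was lower, and the core median was -0.26. Neither set tested ATG22 or ATG15. The core median was 0.073 with at least 2 arrays and -0.033 with centred scans. At an adjusted p under 0.01, 1 autophagy gene was higher and 0 lower (132 and 163 of all genes), and with treat against 1.5-fold 1 and 0 (65 and 77). Leaving out array 1, 2 or 3 gave 1, 1 and 3 higher and 0, 1 and 0 lower autophagy genes, of 33, 34 and 37 tested. Over all genes 132, 137 and 279 were higher and 179, 183 and 318 lower, of 4321, 4494 and 4857 tested. More genes entered than in the main test, as values on the arrays left were enough. The medians were -0.016 to 0.095 for the core, 0.21 to 0.43 for receptors and 0.013 to 0.26 for proteases. ATG4 and ATG45 had no low-power value, so their ratios were the same with high-power scans alone as with both scans. Requiring both scans on all 3 arrays changed no ratio. That core median moved only because 5 of the 17 core genes entered. The cause of the other shifts was not tested, and several settings also changed which genes or arrays entered. Of 30 genes not past the threshold, 11 changed sign under at least 1 alternative, and no called autophagy gene did. The test was itself paired, since each ratio sets a treated culture against an untreated one on the same array, and no replicate block can be added to it. Without brightness, what signal over background limits could not be judged.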
